A study of Mus musculus with 6 samples.

Results

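The interleukin-1 axis and the inflammasome that feeds it were described here through 10 genes of mouse bone marrow-derived macrophages, chosen by gene symbol. They were the ligand genes Il1a, Il1b and Il18, the inhibitor genes Il1rn and Il18bp, the receptor genes Il1r1, Il1rap and Il1r2, the sensor gene Nlrp3 and the protease gene Casp1. All 10 were among the 55421 genes of the count table, and all 10 passed the filter on low counts, as did 13853 genes in all. Wild-type macrophages had been grown from bone marrow with 20 ng/mL macrophage colony-stimulating factor (M-CSF) and 10% serum. In 3 wells this RPMI-1640 medium made up 50% of the volume and the remainder had been conditioned by LL-2 cells, a mouse Lewis lung carcinoma line, whereas 3 untreated wells received the RPMI-1640 medium alone. Poly(A)-selected RNA was sequenced after 24 h. Strain, sex and age of the mice are not stated in the labels. Nor do the labels tie wells to animals, so the p-values below rest on a well-to-well spread that may be technical. Each library is called a well here, although no label says what the replicate numbers stand for. No medium conditioned by other cells was analysed here, so products of the carcinoma cells, conditioning as such and dilution of fresh medium cannot be told apart.

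Interleukin-1 alpha and beta are inflammatory cytokines that signal through the receptor IL-1R1 together with the accessory protein IL-1RAP. The system is held in check by an antagonist that occupies IL-1R1 without signalling, and by IL-1R2, a decoy that binds ligand but lacks the cytoplasmic signalling domain. Interleukin-1 beta and interleukin-18 are made as inactive precursors, which caspase-1 cleaves after a sensor such as NLRP3 has assembled an inflammasome. In macrophages, transcription of Il1b and Nlrp3 is the priming step, whereas precursor cleavage and secretion are not visible in RNA.

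The libraries held 28447825 to 30040682 counts with conditioned medium and 24179548 to 25916709 counts without. The macrophage label was checked on 10 markers, all of which were detected, and their summed level was 59146 to 63426 CPM (counts per 1000000 of the TMM-scaled library) in conditioned medium and 52354 to 61478 CPM in untreated wells. Lyz2, which did not pass the test, made up most of this sum, with a mean of 49293 CPM in conditioned medium and 45410 CPM in untreated wells. Of the 10 macrophage markers 4 rose and 3 fell, where 27.9% of all tested genes were called, 12.6% as higher and 15.2% as lower (edgeR's quasi-likelihood test, adjusted p under 0.05). Of 10 epithelial and fibroblast markers, the epithelial genes Epcam, Krt8, Krt18 and Krt19 had fewer than 10 counts in every library, and so had Cd3e, Cd3d, Cd8a and Ncr1 among 10 lymphocyte markers. Cd4, the most abundant lymphocyte marker, had a mean of 162.9 CPM in conditioned medium and 137.6 CPM in untreated wells. It did not pass edgeR's quasi-likelihood test (adjusted p = 0.446), but passed with the replicate number as a block (0.0018). Summed neutrophil markers (14 genes, Csf3r the most abundant) were at 862 to 983 CPM in conditioned medium and 697 to 919 CPM in untreated wells. Of these 14 genes, 4 rose and 2 fell, and 10 rose and 3 fell in a fit with the replicate number as a block, which called 36.3% of all tested genes. Summed monocyte markers (10 genes, F13a1 the most abundant) were at 1454 to 1522 CPM in conditioned medium and 343 to 413 CPM in untreated wells, with 7 of 9 tested genes risen and 0 fallen. F13a1 made up most of this difference, with a mean of 981 CPM in conditioned medium and 65.0 CPM in untreated wells. The median log2 fold change of the 9 was 0.54. Summed mast cell and basophil markers (10 genes, Prss34 the most abundant and Cma1 at 0 counts throughout) were at 14.4 to 20.1 CPM in conditioned medium and 25.5 to 33.8 CPM in untreated wells, with 1 of 7 tested genes risen and 6 fallen. Summed dendritic cell markers (10 genes, Kmo the most abundant) were at 31.7 to 39.5 CPM in conditioned medium and 29.0 to 38.3 CPM in untreated wells. Of 9 tested, Kmo rose with a log2 fold change of 1.77 and 4 fell, and the median log2 fold change was -0.98. The part of these other cell types in the changes below was not tested. In bulk RNA, fewer cells of a type and less RNA per cell cannot be told apart.

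Of the 10 genes, 3 rose and 3 fell with conditioned medium. The decoy receptor gene Il1r2 and the ligand gene Il1b rose by 6.76-fold and 3.84-fold, and Nlrp3 rose 1.24-fold. The ligand gene Il1a fell to 0.554 of its untreated level, Casp1 to 0.753 and Il18bp to 0.774. Il18, Il1rn, Il1r1 and Il1rap did not pass the threshold, an adjusted p of 0.05 from edgeR's quasi-likelihood test. Across all tested genes 27.9% were called by the same rule, 12.6% as higher and 15.2% as lower. The groups did not overlap for 6 of the 10 genes, against 42.8% of all tested genes. The median log2 fold change was 0.17 over the 10 genes and 0.01 over all tested genes. With the replicate number as a block, where 36.3% of all tested genes were called, 17% as higher and 19.3% as lower, 4 of the 10 genes rose and 3 fell, Il18 being the added rise.

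**Figure D1:**
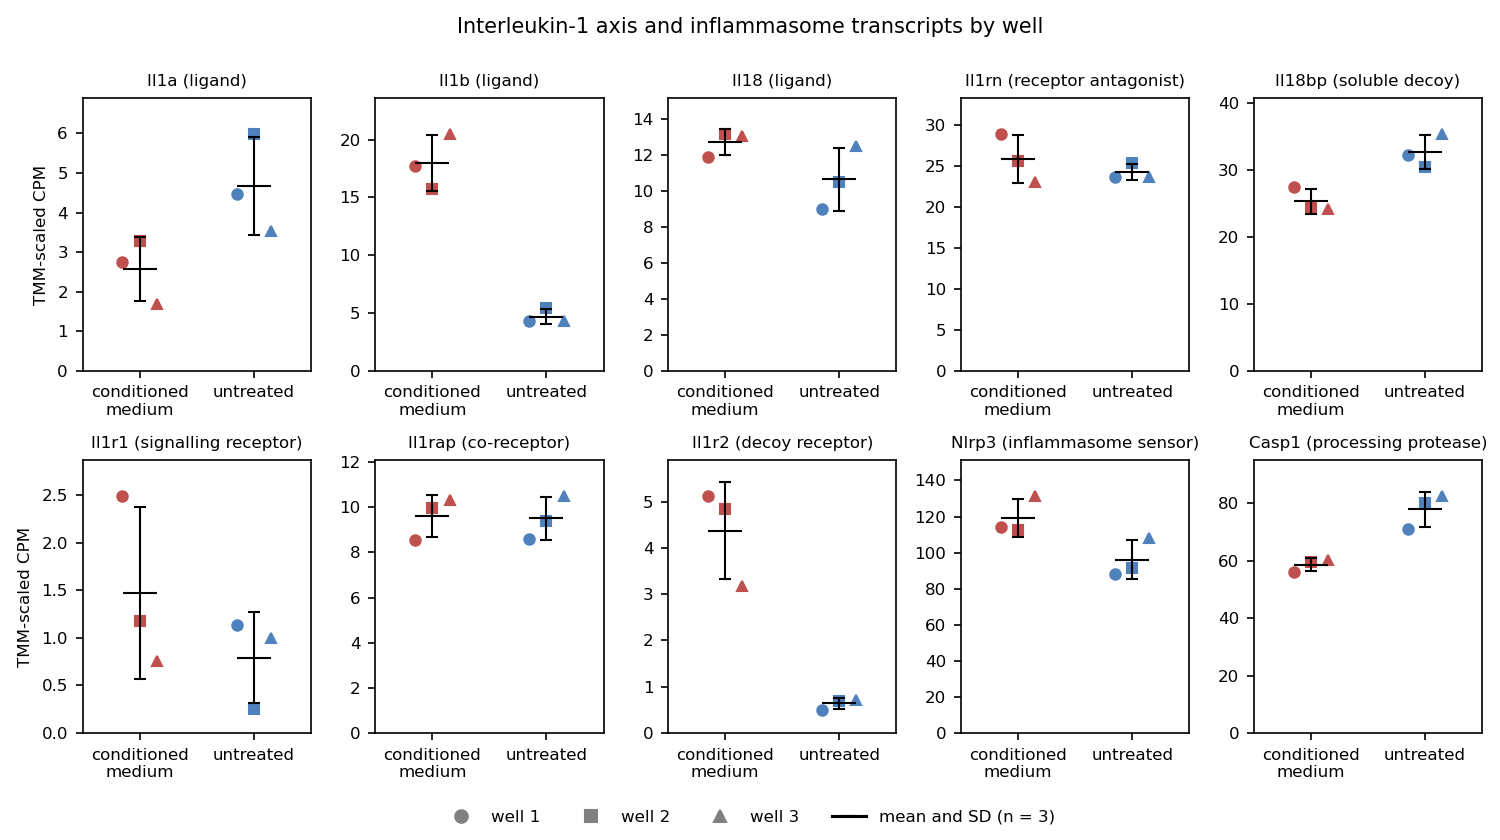
Level of each of the 10 genes in TMM-scaled CPM by well (points, shape gives the well number), for conditioned medium on the left and untreated wells on the right of each panel, with mean and SD (n = 3 per group). The groups are far apart for Il1b (15.7 to 20.5 against 4.29 to 5.45 CPM) and Il1r2 (3.17 to 5.12 against 0.502 to 0.722 CPM), and they overlap for Il18, Il1rn, Il1r1 and Il1rap.

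Among the ligands, Il1b encodes interleukin-1 beta (ENSMUSG00000027398, chromosome 2, 129364570 to 129371139, minus strand, GRCm38). It had 541, 478 and 595 counts in the conditioned-medium wells 1, 2 and 3, against 103, 132 and 107 counts in the untreated wells 1, 2 and 3. Scaled to library size these were 17.7, 15.7 and 20.5 CPM in conditioned medium and 4.31, 5.45 and 4.29 CPM in untreated wells. Each conditioned-medium well lay above each untreated well. The log2 fold change was 1.94 (SE 0.13, 95% interval 1.64 to 2.24, adjusted p = 1.08e-05), and wells of the same number differed by 2.04, 1.53 and 2.26 on the log2 scale. Its exons share 25 bases with the antisense gene Il1bos, which had 16 counts over all 6 libraries against 1956 for Il1b.

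Il1a, the gene of interleukin-1 alpha, an alarmin that is active without caspase-1 cleavage, lies 54.6 kb from Il1b on the same strand (ENSMUSG00000027399, chromosome 2, 129299610 to 129309972). Its level was 2.76, 3.28 and 1.69 CPM in conditioned-medium wells 1, 2 and 3, against 4.47, 5.99 and 3.53 CPM in the untreated wells. The groups did not overlap, although the highest conditioned-medium well lay close to the lowest untreated well. With no overlap, Il1a was necessarily lower in each of the 3 same-numbered pairs. It fell with a log2 fold change of -0.85 (SE 0.27, 95% interval -1.45 to -0.25, adjusted p = 0.0411). This call was lost without scaling beyond the total count (adjusted p = 0.052). It was also lost without conditioned-medium well 1 (0.0944) or 3 (0.0849), and without untreated well 1 (0.0838) or 2 (0.164). With the replicate block the adjusted p was 0.000445. The exons of Il1a share 222 bases with the gene Gm14023 on the other strand, which had 54 counts over all libraries against 573 for Il1a.

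The neighbouring ligand genes thus differed in direction, and their ratio within a library, which needs no scaling between libraries, was added after the values had been seen and is given without a test. There were 6.41, 4.76 and 12.0 counts of Il1b per count of Il1a in the conditioned-medium wells, and 0.963, 0.911 and 1.21 in the untreated wells. The table's exon lengths for the genes are close (1907 and 1974 bases), and per length the ratio was 6.67, 4.95 and 12.6 in conditioned medium and 0.996, 0.942 and 1.26 in untreated wells. In untreated wells both ligand transcripts were thus at similar levels, and Il1b exceeded Il1a in each conditioned-medium well.

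The sequences around the annotated starts of Il1b and Il1a are shown because the genes are neighbours that moved in opposite directions, and that of Il1r2 because it changed most of the 10. They are 300 bases each from RefSeq (GRCm38.p6), 250 before and 50 from the annotated start, printed 5′ to 3′ on the gene's strand, at chr2:129371090-129371389 (minus) for Il1b, chr2:129309923-129310222 (minus) for Il1a and chr1:40085843-40086142 (plus) for Il1r2. Capitals mark matches on either strand to any of 6 motifs. These were the TATA box as TATAAA, the motif of AP-1 factors as TGANTCA, the core of PU.1 sites as GAGGAA, the core of hypoxia response elements as ACGTG, the motif of C/EBP factors as TTGCNNAA, and a loose form of NF-kB sites (3 G, any 5 bases, then a pair of C). The loose NF-kB form and the C/EBP motif, held by 50.8% and 10.8% of windows, had no match in these 3 windows.
Il1b: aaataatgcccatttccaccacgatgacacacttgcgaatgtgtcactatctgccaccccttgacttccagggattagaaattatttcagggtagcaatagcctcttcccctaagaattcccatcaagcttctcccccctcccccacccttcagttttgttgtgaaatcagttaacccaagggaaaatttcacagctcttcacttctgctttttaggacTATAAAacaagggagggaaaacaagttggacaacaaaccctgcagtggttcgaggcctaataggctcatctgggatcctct
Il1a: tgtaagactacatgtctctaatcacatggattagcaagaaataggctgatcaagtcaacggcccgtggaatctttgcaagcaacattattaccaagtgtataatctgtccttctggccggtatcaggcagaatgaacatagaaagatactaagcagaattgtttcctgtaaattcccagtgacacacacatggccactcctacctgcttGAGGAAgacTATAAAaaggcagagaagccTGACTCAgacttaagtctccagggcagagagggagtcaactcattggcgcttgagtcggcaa
Il1r2: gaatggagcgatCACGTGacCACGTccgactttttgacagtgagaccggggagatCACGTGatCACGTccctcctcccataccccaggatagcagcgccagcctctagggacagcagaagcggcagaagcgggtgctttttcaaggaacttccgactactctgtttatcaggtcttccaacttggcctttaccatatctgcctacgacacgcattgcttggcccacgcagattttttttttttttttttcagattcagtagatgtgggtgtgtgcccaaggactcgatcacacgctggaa
Il1b and Il1a each had a TATAAA, at positions -31 and -32 from the start, which 13.6% of 32851 RefSeq promoter windows contain. The Il1a window also had GAGGAA at position -41 (28.3% of windows) and TGANTCA at position -12 (7.81% of windows), and the Il1b window had no other match among the 6 motifs. The Il1r2 window had 6 matches to ACGTG over both strands, from 2 CACGTG palindromes, which count on each strand, and 2 CACGTC stretches. At least 1 ACGTG is found in 19.6% of windows, and at least 6 in 0.1%. The cutoff of 6 was set by the number seen in this window, so that share is no test. The Il1r2 window starts inside the gene's Ensembl span, and 0 Ensembl transcripts of the gene begin at that RefSeq start, against 2 for Il1b and 1 for Il1a. The counts pool all starts of a gene, and the matches are a description of letters.

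Il18 encodes interleukin-18, which drives interferon gamma production in lymphocytes (ENSMUSG00000039217, chromosome 9, 50554827 to 50581840, plus strand). It was at 11.9, 13.2 and 13.1 CPM in conditioned medium and 8.99, 10.5 and 12.5 CPM in untreated wells, and untreated well 3 lay inside the range of the treated wells. The log2 fold change was 0.25 (SE 0.12, 95% interval -0.01 to 0.52, adjusted p = 0.151). Il18 was higher in 3 of 3 same-numbered pairs and passed the threshold with the replicate block (adjusted p = 0.0368), without untreated well 3 (0.0294) and without both wells numbered 3 (0.0385).

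Neither inhibitor gene passed the test as higher. Il1rn, the gene of the IL-1 receptor antagonist (ENSMUSG00000026981, chromosome 2, 24336853 to 24351494, plus strand), was at 28.9, 25.6 and 23.0 CPM in conditioned medium and 23.6, 25.4 and 23.7 CPM in untreated wells. These ranges overlapped, and the log2 fold change was 0.09 (SE 0.08, 95% interval -0.10 to 0.28, adjusted p = 0.459). The interval corresponds to 0.935 to 1.22 times the untreated level. Secreted and intracellular forms of the antagonist, which start at different promoters, are pooled in these counts. Il18bp, the gene of the soluble protein that captures interleukin-18 (ENSMUSG00000070427, chromosome 7, 102014885 to 102018690, minus strand), was at 27.5, 24.3 and 24.2 CPM in conditioned medium and 32.2, 30.4 and 35.4 CPM in untreated wells. Each treated well lay below each untreated well, and Il18bp fell with a log2 fold change of -0.37 (SE 0.08, 95% interval -0.54 to -0.20, adjusted p = 0.00559). It shares 80 of 3026 exon bases with Numa1 on the other strand, which had 33922 counts over all libraries against 4670 for Il18bp, so its counts are uncertain where strand was not kept.

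Each inhibitor gene was then set, within a library, against the gene of a ligand that its product opposes. For Il1rn this was Il1b alone, although the antagonist also opposes interleukin-1 alpha. Il1a fell to 0.554 of its untreated level where Il1rn was at 1.07 times its own, and the ratio of Il1rn to Il1a was not taken. There were 1.63, 1.63 and 1.12 counts of Il1rn per count of Il1b in the conditioned-medium wells, against 5.46, 4.65 and 5.49 in the untreated wells. The log2 ratio was 0.53 ± 0.31 in conditioned medium and 2.38 ± 0.14 in untreated wells (SD, n = 3 each), a difference of -1.85. The groups did not overlap, and the exact two-sided permutation test gave p = 0.1, the smallest it allows for 3 against 3 wells (0.15 adjusted over the 3 ratios tested). Per exon length, Il1rn stood at 0.561, 0.563 and 0.387 of Il1b in conditioned medium and at 1.89, 1.61 and 1.90 times Il1b in untreated wells. The order of antagonist and ligand transcript was therefore opposite in the groups on this scale. In counts, Il1rn was above Il1b in each library of both groups. The scale rests on exon lengths of 5535 bases for Il1rn and 1907 bases for Il1b, which need not be those of the forms transcribed.

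For Il18bp against Il18 there were 2.31, 1.83 and 1.85 counts per count in conditioned medium, against 3.58, 2.89 and 2.83 in untreated wells. The log2 ratio was 0.99 ± 0.19 in conditioned medium and 1.62 ± 0.19 in untreated wells (SD, n = 3 each), a difference of -0.63, again without overlap (exact permutation p = 0.1, adjusted 0.15). The ratios of Il1rn to Il1b and of Il18bp to Il18 were thus lower in each conditioned-medium well than in each untreated well. The decoy receptor gene Il1r2, which rose 6.76-fold where Il1b rose 3.84-fold, was not set against a ligand.

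**Figure D2:**
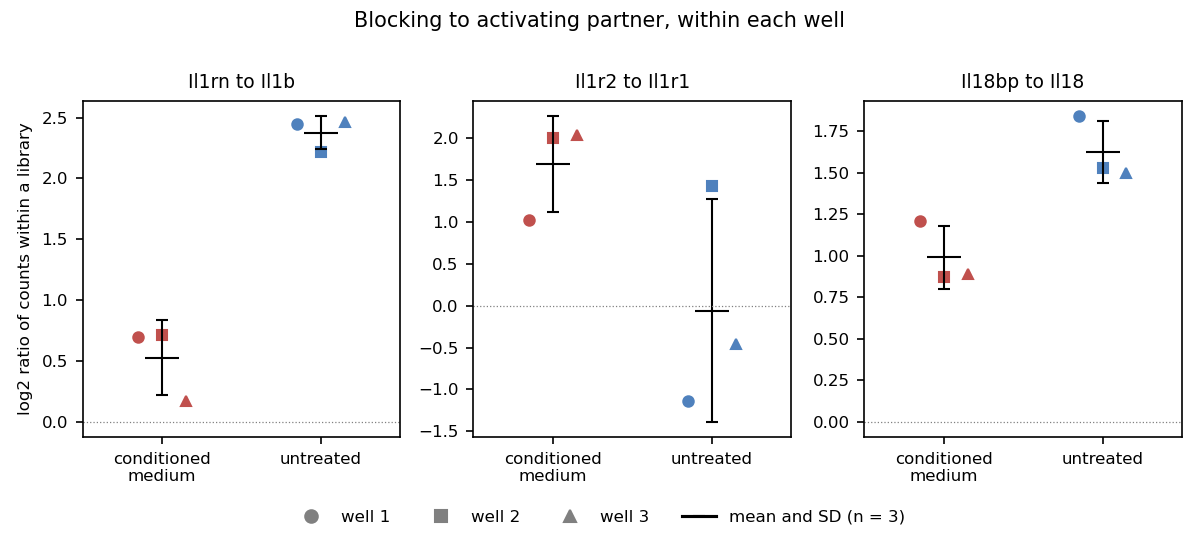
Log2 ratio of counts within each library for Il1rn to Il1b, Il1r2 to Il1r1 and Il18bp to Il18 (points by well, mean and SD of 3 wells), conditioned medium left and untreated right. The groups are separate for Il1rn to Il1b (0.53 against 2.38) and Il18bp to Il18 (0.99 against 1.62) and overlap for Il1r2 to Il1r1.

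Among the receptors, Il1r2, the decoy (ENSMUSG00000026073, chromosome 1, 40074079 to 40125231, plus strand), had 156, 147 and 92 counts in conditioned medium, against 12, 17 and 18 counts in untreated wells. These were 5.12, 4.83 and 3.17 CPM in conditioned medium and 0.502, 0.702 and 0.722 CPM in untreated wells. The lowest treated well was well above the highest untreated well. Il1r2 rose with a log2 fold change of 2.76 (SE 0.26, 95% interval 2.16 to 3.35, adjusted p = 7.63e-05). Wells of the same number differed by 3.35, 2.78 and 2.13 on the log2 scale. Il1r2 is also abundant in neutrophils. Of the 14 neutrophil markers, here named after their values were seen, Cxcr2, Retnlg, Mmp8 and Prtn3 rose with log2 fold changes of 0.80, 0.66, 1.05 and 1.09, and Camp and Ltf fell with -0.90 and -0.69. The other 8, Ly6g, S100a8 and S100a9 among them, did not pass the test, and the summed level overlapped between the groups. Ly6g, with 2 to 24 counts per library, had a log2 fold change of 1.16 without overlap (adjusted p = 0.114, and 0.0672 with the replicate block). S100a8 and S100a9 had 0.32 and 0.18 and passed as higher with the block (adjusted p = 0.00775 and 0.0372). With the block 10 of the 14 rose and 3 fell. The part of neutrophils in the Il1r2 counts was not tested.

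Il1r1, the signalling receptor gene, lies 99.8 kb downstream of Il1r2 (ENSMUSG00000026072, chromosome 1, 40225080 to 40317257). It was the scarcest of the 10 per length and the least even between wells, with 76, 36 and 22 counts in conditioned medium, against 27, 6 and 25 counts in untreated wells. The groups overlapped, and the log2 fold change of 0.90 had an SE of 0.55 and a 95% interval of -0.34 to 2.13 (adjusted p = 0.267), so neither direction was resolved. The 10 epithelial and fibroblast markers, with Col1a2 the most abundant, summed to 82.8, 32.9 and 29.0 CPM in conditioned medium and to 59.9, 15.8 and 31.2 CPM in untreated wells. Of the 6 tested, 0 were called and 3 rose with the replicate block. Both Il1r1 and this sum were highest in conditioned-medium well 1 and lowest in untreated well 2, and the part of stromal cells in the Il1r1 counts was not tested.

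The count of Il1r2 per count of Il1r1 was 2.05, 4.04 and 4.11 in conditioned medium and 0.455, 2.69 and 0.725 in untreated wells. The log2 ratio was 1.70 ± 0.57 in conditioned medium and -0.06 ± 1.33 in untreated wells (SD, n = 3 each). Untreated well 2, with 6 counts of Il1r1, lay inside the treated range, and the groups overlapped, so the difference of 1.75 did not reach the smallest p the test allows (exact permutation p = 0.2, adjusted 0.2). Il1rap, the gene of the accessory chain shared by receptors of the family (ENSMUSG00000022514, chromosome 16, 26581704 to 26730117, plus strand), was at 8.56, 9.95 and 10.3 CPM in conditioned medium and 8.61, 9.41 and 10.5 CPM in untreated wells. Its groups overlapped almost entirely, with a log2 fold change of 0.01 (SE 0.11, 95% interval -0.24 to 0.26, adjusted p = 0.947), or 0.847 to 1.20 times the untreated level.

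The inflammasome genes were the most abundant of the 10. Nlrp3 encodes the sensor of ion fluxes and organelle damage (ENSMUSG00000032691, chromosome 11, 59541568 to 59566956, plus strand). It was at 114.2, 112.5 and 131.4 CPM in conditioned medium and 88.1, 91.6 and 108.3 CPM in untreated wells, the lowest treated well just above the highest untreated well. Nlrp3 rose with a log2 fold change of 0.31 (SE 0.09, 95% interval 0.12 to 0.51, adjusted p = 0.023), and same-numbered wells differed by 0.37, 0.30 and 0.28. The call was lost without conditioned-medium well 3 (adjusted p = 0.0508), untreated well 1 (0.0873) or untreated well 2 (0.0959), and with the replicate block the adjusted p was 2.06e-05.

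Casp1, the gene of the protease that matures both cytokines (ENSMUSG00000025888, chromosome 9, 5298508 to 5307290, plus strand), was at 56.1, 59.6 and 60.1 CPM in conditioned medium and 70.9, 80.1 and 82.5 CPM in untreated wells. The groups were separate, and Casp1 fell with a log2 fold change of -0.41 (SE 0.06, 95% interval -0.55 to -0.27, adjusted p = 0.00109). Sensor and protease transcripts therefore moved in opposite directions. Each did so in 3 of 3 same-numbered pairs, which the lack of overlap between the groups already implies.

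**Figure D3:**
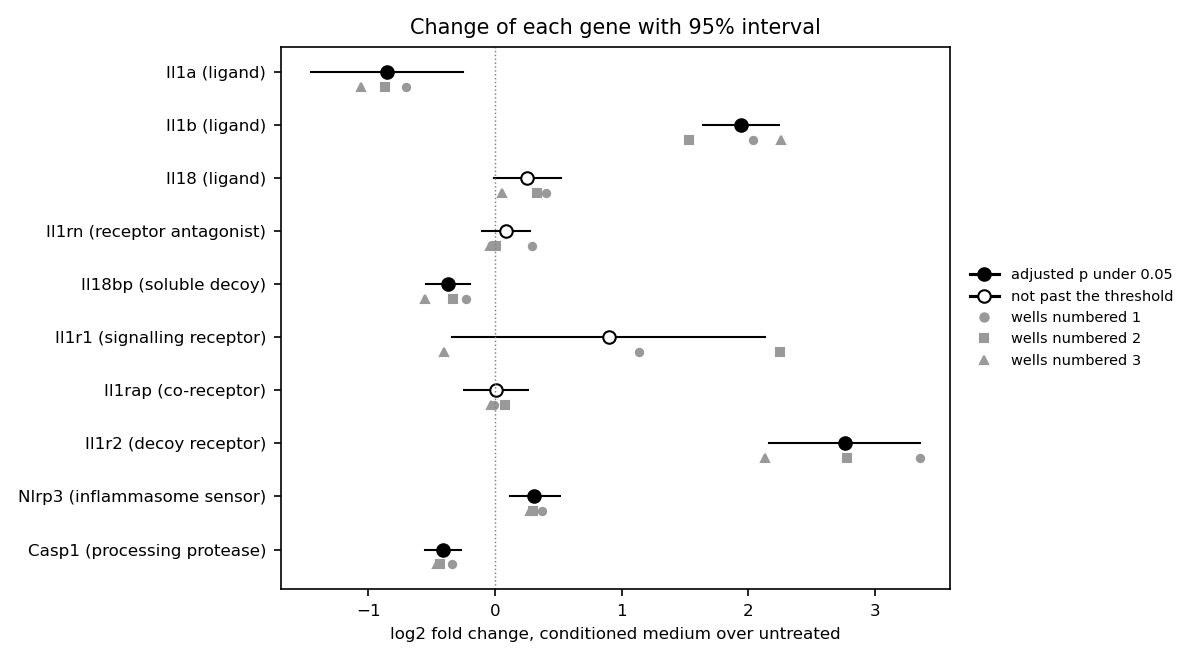
Log2 fold change of each of the 10 genes, conditioned medium over untreated (large points, filled where the adjusted p is under 0.05), with 95% intervals as lines. The small grey points are the differences between same-numbered wells. Il1r2 (2.76) and Il1b (1.94) lie far to the right, Il1a (-0.85) to the left, and the interval of Il1r1 (-0.34 to 2.13) is the widest.

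Per length, as TPM (transcripts per 1000000, from the table's exon lengths), the order of the 10 genes differed between the groups in a few places. In conditioned medium it ran Nlrp3 (89.1 TPM), Casp1 (56.5), Il18 (37.4), Il1b (28.6), Il18bp (25.3), Il1rn (14.1), Il1r2 (6.93), Il1a (3.94), Il1rap (2.56) and Il1r1 (0.703). The ranges of neighbours overlapped for Il1b with Il18bp and for Il1a with Il1rap. In untreated wells the order was Casp1 (71.8 TPM), Nlrp3 (68.4), Il18bp (31.2), Il18 (29.9), Il1rn (12.7), Il1b (7.11), Il1a (6.86), Il1rap (2.42), Il1r2 (0.972) and Il1r1 (0.359). There the ranges overlapped for Casp1 with Nlrp3, Il18bp with Il18 and Il1b with Il1a. Il1b was above Il1rn in each conditioned-medium well and below it in each untreated well, and Il1r2 likewise stood above Il1rap in conditioned medium and below it in untreated wells. Both reversals depend on the exon lengths (1908 bases for Il1r2 and 11360 bases for Il1rap). In counts, Il1b was below Il1rn and Il1r2 below Il1rap in each library of both groups.

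**Figure D4:**
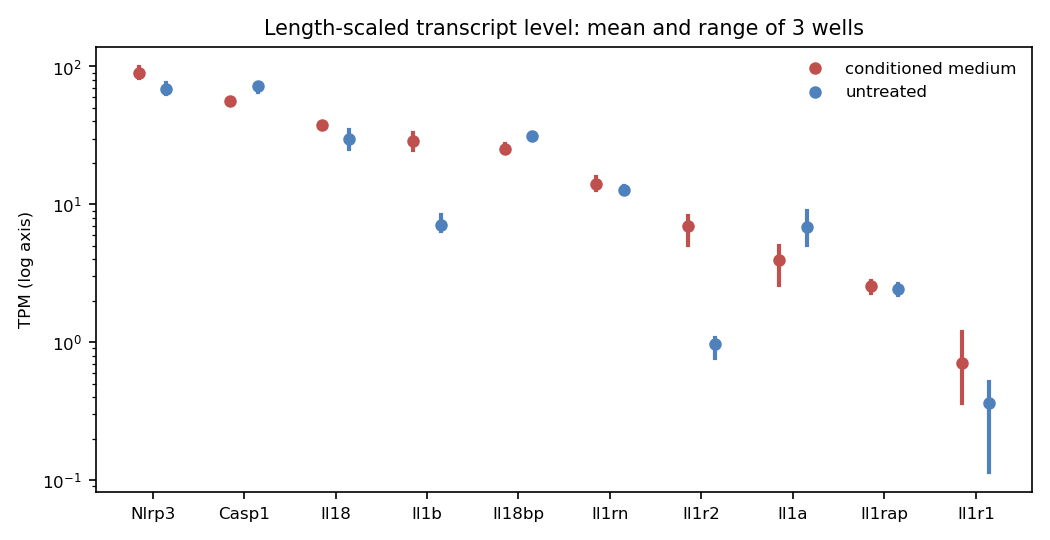
Length-scaled level in TPM (log axis) of the 10 genes, ordered by their mean in conditioned medium (red, left of each pair) beside untreated wells (blue). Points are means and lines the range of 3 wells. Il1b (28.6 against 7.11 TPM) and Il1r2 (6.93 against 0.972 TPM) change place in the order, and Il1r1 is lowest in both groups.

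Downstream of the receptors, 5 of 18 tested signalling genes rose and 1 fell, or 33.3% called, against 27.9% of all tested genes (median log2 fold change 0.07). With the replicate block 5 rose and 2 fell. Irak2, a kinase-like adaptor of the receptor complex, fell (43.6 ± 1.71 CPM in conditioned medium and 81.1 ± 2.41 CPM in untreated wells, SD, n = 3 each; log2 fold change -0.89, adjusted p = 2.5e-06). Irak3, which encodes IRAK-M, an inhibitor of the same complex, rose (145 ± 17.0 CPM in conditioned medium and 102 ± 12.7 CPM in untreated wells; log2 fold change 0.51, adjusted p = 0.00456). Its exons share 192 bases with Tmbim4 on the other strand (10500 counts), so its counts are uncertain. The kinase gene Map3k3 rose by 0.33 on the log2 scale (adjusted p = 0.000623). Myd88, the adaptor that the signalling receptor IL-1R1 uses, was chosen after its values were seen and was at 96.6 ± 4.16 CPM in conditioned medium and 96.8 ± 9.90 CPM in untreated wells (adjusted p = 0.98). Its exons share 290 bases with Acaa1a on the other strand (34736 counts), so its counts are uncertain too.

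Of 12 other ligand and receptor genes of the family, 5 were tested. Il18rap, the accessory chain of the interleukin-18 receptor, rose to 6.27, 4.04 and 4.75 CPM in conditioned medium, against 2.47, 2.77 and 2.85 CPM in untreated wells (log2 fold change 0.90, SE 0.19, adjusted p = 0.00663). It was the only call, 20% of those tested against 27.9% of all tested genes, and the block called 2 higher and 1 lower. The partner chain Il18r1, named after its values were seen, was at 0.331 ± 0.113 CPM in conditioned medium and 0.288 ± 0.144 CPM in untreated wells (adjusted p = 0.791). The 7 untested genes, among them Il33 and the interleukin-36 genes Il1f6 and Il1f8 (named after their values were seen), had 0 counts in all libraries, which allows up to 3 counts or 0.0984 to 0.125 CPM in a library, for counting error only. Il1f9, another interleukin-36 gene named after its values were seen, was detected and tested. It was at 6.07, 4.43 and 4.96 CPM in conditioned medium and 3.47, 3.92 and 3.81 CPM in untreated wells. Its log2 fold change was 0.46 (adjusted p = 0.0514, and 0.0268 with the replicate block).

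Around the inflammasome, 5 of 20 tested sensor and adaptor genes rose and 4 fell (45% called, against 27.9% of all tested genes; median log2 fold change 0.06). Card6, a gene with a caspase recruitment domain, rose to 21.6 ± 1.81 CPM in conditioned medium, against 13.2 ± 0.739 CPM in untreated wells (log2 fold change 0.71, adjusted p = 0.000239). Txnip, a thioredoxin inhibitor reported to bind NLRP3, rose by 0.63 on the log2 scale to 660 ± 11.0 CPM, against 427 ± 8.09 CPM in untreated wells (adjusted p = 7.85e-06). Nlrc5, a regulator of MHC class I genes within the same protein family, fell with a log2 fold change of -0.60 (adjusted p = 0.013, and 0.0506 without conditioned-medium well 1 and 0.0919 with a robust fit). Chosen after its values were seen, Pycard, the adaptor ASC that links NLRP3 to caspase-1, was at 44.3 ± 1.64 CPM in conditioned medium and 41.5 ± 0.607 CPM in untreated wells (log2 fold change 0.09, adjusted p = 0.184). The double-stranded DNA sensor gene Aim2, chosen in the same way, fell with a log2 fold change of -0.40 (adjusted p = 0.000616).

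Of 15 caspase and cell death genes, 2 rose and 4 fell (40% called, against 27.9% of all tested genes; median log2 fold change -0.04). Without untreated well 2 there were 3 calls in place of 6. Ninj1, needed for membrane rupture in lytic death, rose by 0.53 on the log2 scale to 665 ± 41.8 CPM, against 460.5 ± 38.9 CPM in untreated wells (adjusted p = 0.000461). Gsdme, a pore-forming gasdermin gene, fell with a log2 fold change of -0.52 (adjusted p = 0.0276), a call lost without conditioned-medium well 1 (0.0729) or 3 (0.0738) and untreated well 1 (0.0987) or 2 (0.0994). Mlkl, the executor of necroptosis, fell with a log2 fold change of -0.51 (adjusted p = 0.0122, and 0.0502 without untreated well 2). Gsdmd, the main caspase-1 substrate in pyroptosis, was named after its values were seen and was at 153 ± 12.0 CPM in conditioned medium and 146 ± 14.1 CPM in untreated wells (adjusted p = 0.558).

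Genes known to be induced by interleukin-1, many of them also by other NF-kB signals, moved both ways. Of 20 tested, 7 rose and 4 fell (55% called, against 27.9% of all tested genes; median log2 fold change 0.40). Saa3, an acute-phase gene, was at 689, 645 and 1127 CPM in conditioned medium and 132, 132 and 411 CPM in untreated wells (log2 fold change 1.87, SE 0.42, adjusted p = 0.00949, and 0.104 with a robust fit). Well 3 was highest in both groups, and without untreated well 3 the log2 fold change was 2.63 (adjusted p = 8.62e-05). Cxcl2, a neutrophil attractant gene, rose to 9.13 ± 2.33 CPM in conditioned medium, against 2.86 ± 0.75 CPM in untreated wells (SD, n = 3 each; log2 fold change 1.67, adjusted p = 0.000566). Vcam1, an adhesion molecule gene, rose to 75.6 ± 2.49 CPM in conditioned medium, against 30.3 ± 0.597 CPM in untreated wells (log2 fold change 1.32, adjusted p = 3.14e-07). Il6, a prime target of interleukin-1 in many cells that was named after its values were seen, had 2 counts in each conditioned-medium library and 2, 2 and 1 in the untreated libraries, under 3 counts in each library. Of the 4 fallen genes, chosen after their values were seen, Tnfaip3, Nfkbiz and Tnip1 had log2 fold changes of -0.62, -0.60 and -0.55, and Icam1 had -0.40.

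**Figure D5:**
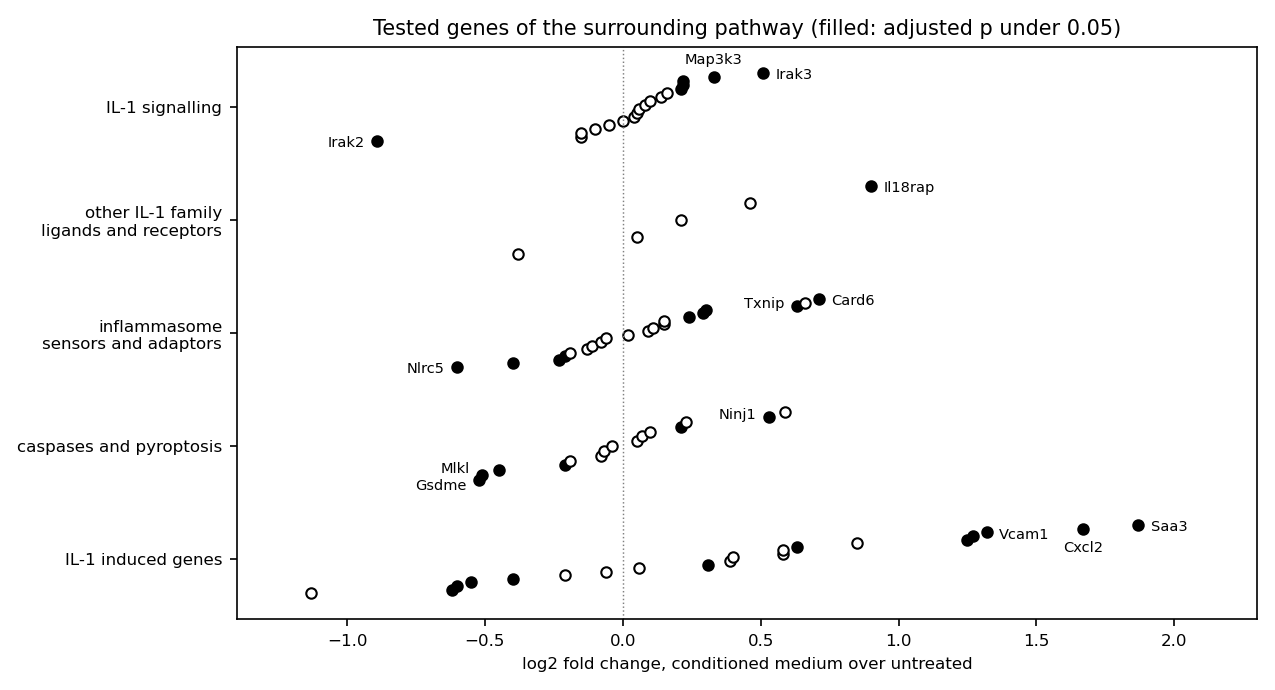
Log2 fold change of each tested gene in the 5 lists around the 10 genes (a point per gene, spread vertically within its list only to separate points), filled where the adjusted p is under 0.05. The named genes are labelled, from Irak2 (-0.89) to Saa3 (1.87), and each list except that of other family ligands and receptors holds filled points on both sides of 0.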

How the data were processed

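The authors deposited raw read counts, as whole numbers, for each gene in 6 libraries. HISAT2, featureCounts and GRCm38 are named in the submitters' processing notes, with no versions. Strand setting, annotation release and the treatment of multi-mapping reads are not stated there, so counts of overlapping genes are uncertain. Of 55421 gene identifiers, 55240 matched GENCODE M21, which gave the symbols. The unmatched held 0.0017% of counts. Coordinates and exon lengths are the table's. Each of the 10 genes matched a RefSeq promoter table.

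Genes were filtered with filterByExpr, scaled by TMM and tested with edgeR's quasi-likelihood test on group (edgeR 4.0.16, limma 3.58.1, R 4.3.3), with Benjamini-Hochberg adjustment over 13853 genes and a threshold of 0.05. All adjusted p-values are from this test unless another is named. SE was derived from the F statistic. Positive log2 fold changes mean higher in conditioned medium. CPM use TMM-scaled totals, and TPM use exon lengths. Ratios within a library used counts plus 0.5 and an exact permutation test. No 2 replicate libraries agreed within sampling noise, and all 6 were kept apart. The scripts were tested on simulated data.

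Same-numbered wells were checked for pairing, by correlating deviations from group means over 13853 genes. The correlations were 0.328, 0.161 and 0.309, all over 0.1, and -0.289 to 0.011 for wells of different numbers. They were therefore taken as pairs on the evidence of the data, since no label says what the numbers mean. The main fit and the permutation tests still used group alone. Blocked values stand beside them where they change a call or move a count by over 1.5 times. The alternatives were RLE or no scaling, DESeq2 1.42.0, limma-voom, a robust fit, other filters, a replicate block and the removal of each library in turn. Leaving out both wells numbered 3, the ratio of Il1b to Il1a and all alternatives for named genes outside the 10 were added after the data were seen.

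The 10 genes and all lists were chosen with earlier results of these data known. Named genes were the 10, and for each surrounding list the 3 largest changes past the threshold. Of marker lists the most abundant gene was named, and some of the genes at or near 0 counts. Others are marked as chosen after their values were seen.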

Additional observations from a re-analysis of the deposited data

How the results depend on the processing

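Of the 10 genes, 6 were called, and 5 to 7 were called under the alternatives with all libraries. Total-count scaling lost Il1a (adjusted p = 0.052), and the replicate block gained Il18 and changed no other call among the 10. Leaving out 1 library gave 4 to 7 calls, 2 to 4 of them higher and 2 to 3 lower, and leaving out both wells numbered 3 gave 7. Il1b, Il1r2, Il18bp and Casp1 kept their call and direction under all 15 alternatives, and leaving out 1 library moved their log2 fold changes within 1.83 to 2.06, 2.61 to 2.94, -0.43 to -0.31 and -0.47 to -0.37. Il1rap, near 0, lay between -0.06 and 0.09. All tested genes called numbered 3861, and 2725 to 3654 with 1 library left out. Total-count scaling put 2656 genes higher and 1710 lower, where TMM put 1749 and 2112. The other family ligands and receptors had 1 call, 1 to 2 with 1 library left out, 2 by total count, robust fit or no filter, and 3 with the replicate block. Caspase and cell death genes had 6 calls, and 3 to 6 with 1 library left out. Il1rn to Il1b kept its sign with 1 library left out (-1.94 to -1.67), as did Il18bp to Il18 (-0.74 to -0.52) and Il1r2 to Il1r1 (1.21 to 2.50). The paired difference equals the unpaired one for these ratios (-1.85, -0.63 and 1.75), with a smallest exact p of 0.25. The cause of these shifts was not tested. At this depth a gene with 0 to 3 counts in a library, such as Il6, has no resolved level.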
